A study of Mus musculus with 6 samples.

Results

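A set of 10 adhesive glycoprotein genes of the extracellular matrix was followed in mammary fibroblasts: Fn1, the tenascin genes Tnc, Tnxb and Tnn, Postn and its relative Tgfbi, Sparcl1, Vcan, and the emilin genes Emilin1 and Emilin2. They were chosen by name as 10 of the 27179 genes in the count table, each symbol matched 1 gene identifier, and all 10 were among the 15219 genes expressed highly enough to be tested. The fibroblasts were sorted by flow cytometry as Lin-CD24-Pdgfra+ cells, where Lin- means depleted of CD31+, CD45+ and TER-119+ cells, from the mammary glands of pubertal mice (6 weeks of age; strain FVB/N in the sample labels and FVB/NJ in the study's methods), and split into a CD34hi and a CD34lo population, where CD34 is a surface sialomucin. No treatment or transgene was involved. Each of 3 pools of 2 mice gave 1 CD34hi and 1 CD34lo library, which made 6 libraries, 3 for each population, and the comparison asked which transcripts differ between the populations of the same glands. Polyadenylated RNA was sequenced, and the libraries held between 28764779 and 52402410 counts on genes.

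Adhesive glycoproteins sit between collagen or elastic fibers and the cell surface, where integrins and other receptors bind them. Fibronectin is the provisional scaffold on which other matrix proteins assemble, whereas tenascins, periostin, Tgfbi and Sparcl1 are matricellular proteins that tune adhesion more than they bear load. In the mammary gland, the stroma that surrounds ducts differs from the interlobular stroma in its matrix, and the tips of growing ducts meet a changing matrix during puberty.

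The sort marker was checked first. Cd34 reached 2490, 2640 and 2580 CPM (counts scaled to a total of 1e+06 with TMM-normalized library sizes) in the CD34hi libraries and 476, 793 and 632 CPM in the CD34lo libraries, a log2 fold change of 2.02 ± 0.20 (SE, edgeR, adjusted p = 9.66e-05). All log2 fold changes are CD34hi vs CD34lo, so that a negative value means higher in CD34lo fibroblasts. The p-values are from edgeR's quasi-likelihood test, adjusted over the 15219 genes, in a fit that leaves out the pairing by pool. The fibroblast markers Pdgfra, Dcn, Lum, Col1a2 and Igfbp5 were present in every library and summed to between 28400 and 31900 CPM in CD34hi and between 31500 and 36400 CPM in CD34lo libraries. Igfbp5 was higher in CD34hi (log2 fold change 3.45, 8400 ± 936 against 767 ± 249 CPM, SD, n = 3), Lum (-1.28), Pdgfra (-0.74) and Col1a2 (-0.69) were higher in CD34lo, and Dcn (-0.34) did not pass. Both Pdgfra and Col1a2 lost the call without the CD34hi library of pool 1 or 2 or the whole of pool 1 or 2, as did Pdgfra without the CD34lo library of pool 3 and Col1a2 without that of pool 1 (adjusted p between 0.0534 and 0.206). In bulk libraries, fewer cells that express a gene and less RNA per cell cannot be told apart.

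The 10 genes split between the populations. Fn1, Tnxb and Emilin2 were higher in CD34hi fibroblasts, and Tnc, Postn, Tgfbi, Sparcl1 and Emilin1 were higher in CD34lo fibroblasts. Vcan and Tnn did not pass the threshold of an adjusted p of 0.05. Thus 8 of 10 genes differed, 3 higher in CD34hi and 5 higher in CD34lo, where 35.6% of all tested genes differed, 16.9% being higher in CD34hi and 18.7% higher in CD34lo. The libraries of the populations did not overlap for the same 8 genes, as was so for 50.1% of all tested genes. The median log2 fold change was -0.73 over the 10 genes and -0.0064 over all tested genes. These genes and the lists below were chosen with earlier results of these data known. Their counts and medians beside those of all tested genes are therefore a description and not a test.

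**Figure D1:**
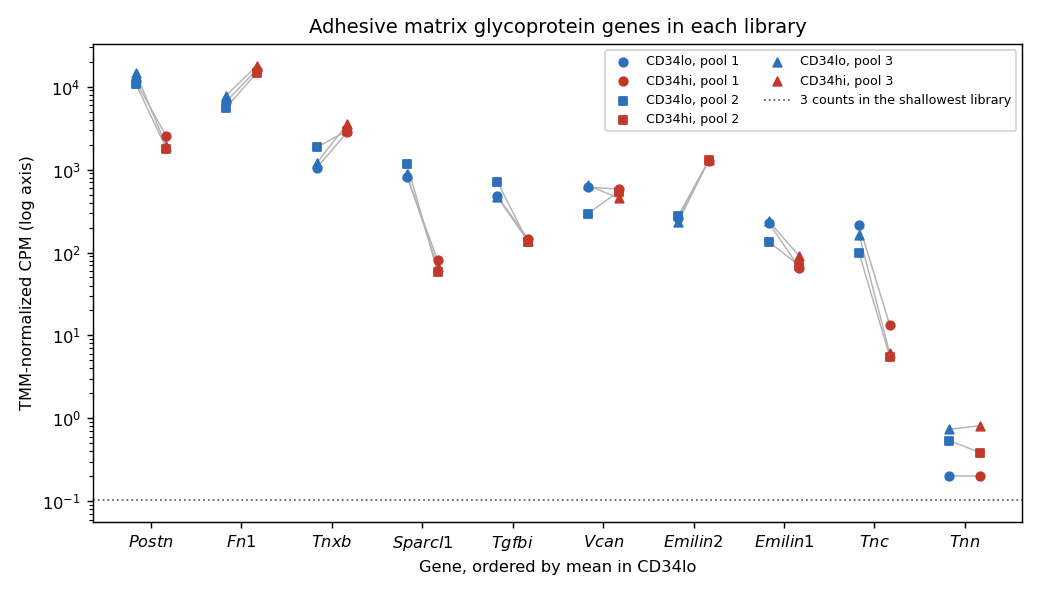
Expression of the 10 adhesive glycoprotein genes in each of the 6 libraries, as TMM-normalized CPM on a log axis, with grey lines joining the libraries of 1 pool and a dotted line at 3 counts in the shallowest library (0.104 CPM). The populations do not overlap for 8 genes and overlap for Vcan and Tnn.

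The fibronectin gene was among those with the highest CPM in both populations. Fn1 (gene 14268; GRCm38 chr1:71585523-71653171, minus strand) reached 16100, 14700 and 17900 CPM in the CD34hi libraries and 6590, 5590 and 7810 CPM in the CD34lo libraries. The lowest CD34hi library lay above the highest CD34lo library. By mean CPM, Fn1 ranked 3 of 15219 genes in CD34hi and 10 in CD34lo fibroblasts. CPM is not divided by gene length, and Fn1 has 8312 bases of exon, so that this rank favors it over shorter genes. The means were 16200 ± 1600 and 6660 ± 1110 CPM (SD, n = 3 pools), a log2 fold change of 1.29 ± 0.19 (SE, 95% interval 0.84 to 1.73; edgeR, adjusted p = 0.00104), or 2.44-fold higher in CD34hi. The annotation (GENCODE M21) lists 9 protein-coding transcripts of Fn1, with 46 exons in the longest, and gene counts do not separate its splice forms.

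Among the tenascins, large modular proteins that modulate adhesion to fibronectin, Tnc and Tnxb differed in opposite directions and Tnn did not pass. Tnc encodes tenascin-C, a multi-armed glycoprotein typical of growing and remodeling tissue, and Tnxb encodes tenascin-X, which binds collagen fibrils. Tnc (gene 21923; chr4:63959785-64047015, minus strand) was at 13.3, 5.55 and 6.06 CPM in CD34hi and 216, 99.2 and 164 CPM in CD34lo libraries, so that every CD34lo library lay well above every CD34hi library. Its log2 fold change of -4.26 ± 0.41 (SE, 95% interval -5.20 to -3.32; edgeR, adjusted p = 8.93e-05) meant 19.2-fold higher expression in CD34lo. This was the largest difference among the 10 genes, and 159th in size among all genes ordered from the most higher in CD34lo. Tnc also varied among CD34hi libraries, where pool 1 was the highest. An antisense gene, 8030451A03Rik, overlaps Tnc but held 63 counts against 20658 over the 6 libraries.

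Tnxb (gene 81877; chr17:34670535-34719815, plus strand) showed the reverse pattern, with 2830, 2950 and 3560 CPM in CD34hi and 1040, 1850 and 1190 CPM in CD34lo libraries. The highest CD34lo library, that of pool 2, stayed below all CD34hi libraries. The log2 fold change was 1.20 ± 0.23 (SE, 95% interval 0.67 to 1.73; edgeR, adjusted p = 0.004), or 2.29-fold higher in CD34hi. Tnn (gene 329278; chr1:160085029-160153575, minus strand), which encodes tenascin-N (also called tenascin-W), was close to the detection limit. It had 9, 14 and 37 counts in CD34hi and 11, 15 and 23 counts in CD34lo libraries, that is, between 0.201 and 0.816 CPM, where 3 counts corresponded to between 0.0572 and 0.104 CPM. The log2 fold change of -0.02 had a 95% interval from -1.51 to 1.46 (edgeR, adjusted p = 0.981), so that differences within this range are not excluded.

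Expression per length allowed a comparison between genes within a library. The ratio of Tnxb to Tnc in CPM per kilobase of exon was 158, 395 and 436 in the CD34hi libraries and 3.57, 13.9 and 5.36 in the CD34lo libraries. Thus Tnxb exceeded Tnc in every library, and by more in CD34hi. The exon length in the table is 9569 bases for Tnxb, shorter than its longest annotated coding sequence of 12018 bases, so that its level per kilobase depends on the gene model used.

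To show the DNA in front of these oppositely expressed genes, the 250 bases upstream of the RefSeq start site (GRCm38.p6) are given 5′ to 3′ on the strand of the gene, with matches on either strand to a TATA box (TATAAA), a GC box (GGGCGG), an AP-1 site (TGANTCA) or a CCAAT box in capitals. Tnc and Postn each had 2 RefSeq windows, of which the window nearest the start of the gene used for counting was taken. Among 32851 mouse windows of the same length, 12.4% held a TATA box, 32.7% a GC box, 6.75% an AP-1 site and 33.8% a CCAAT box. The Tnc window (chr4:64047016-64047265, minus strand) held a TATA box 126 bases and a GC box 167 bases before the start, and the Tnxb window (chr17:34670285-34670534, plus strand) held TGAGTCA 55 bases before it. Of 3 other motifs searched in the 8 genes with a RefSeq window, an E-box (CANNTG) was in 4 (66.2% of all windows), a SMAD element (CAGACA) in 1 (17.1%) and a Gli site (GACCACCCA) in 0 (0.225%). No motif overlapped another in the windows shown, and such matches describe letters and are not evidence of binding.
Tnc: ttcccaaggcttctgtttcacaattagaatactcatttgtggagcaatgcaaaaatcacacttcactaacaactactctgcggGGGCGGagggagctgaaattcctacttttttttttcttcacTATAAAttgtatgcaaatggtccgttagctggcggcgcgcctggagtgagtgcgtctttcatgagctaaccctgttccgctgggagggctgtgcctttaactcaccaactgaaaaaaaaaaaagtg
Tnxb: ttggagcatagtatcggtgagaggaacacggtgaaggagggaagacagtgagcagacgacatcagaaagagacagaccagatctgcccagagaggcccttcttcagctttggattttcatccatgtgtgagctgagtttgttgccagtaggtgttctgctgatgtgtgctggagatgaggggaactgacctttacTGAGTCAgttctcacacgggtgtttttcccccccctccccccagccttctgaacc

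Periostin, a matricellular protein secreted by fibroblasts and a ligand of alpha-v integrins, had the highest level of the 10 genes in CD34lo libraries. Postn (gene 50706; chr3:54361107-54391041, plus strand) was at 2510, 1790 and 1920 CPM in CD34hi and 11700, 10900 and 14800 CPM in CD34lo libraries. Every CD34lo library lay far above every CD34hi library. The means were 2080 ± 386 and 12500 ± 2030 CPM (SD, n = 3), a log2 fold change of -2.59 ± 0.21 (SE, 95% interval -3.07 to -2.10; edgeR, adjusted p = 3.76e-05). Postn ranked 5 of 15219 genes by mean CPM, not divided by length, in CD34lo and 55 in CD34hi fibroblasts.

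Tgfbi encodes the protein that shares the fasciclin domains of periostin and is induced by TGF-beta. Tgfbi (gene 21810; chr13:56609603-56639339, plus strand) was at 146, 133 and 136 CPM in CD34hi and 477, 714 and 469 CPM in CD34lo libraries. The CD34hi libraries lay close together (138 ± 6.82, SD, n = 3), whereas the CD34lo libraries spread more (553 ± 139), with pool 2 highest. Its log2 fold change of -2.00 ± 0.18 (SE, 95% interval -2.42 to -1.58; edgeR, adjusted p = 6.6e-05) was in the same direction as that of Postn. Postn exceeded Tgfbi in CPM per kilobase by 14, 11 and 11.5 times in CD34hi and by 19.9, 12.5 and 25.6 times in CD34lo libraries, ranges that overlap.

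The window upstream of Postn (chr3:54360857-54361106, plus strand) is shown because Postn is the most abundant of the 10 transcripts in CD34lo fibroblasts. It held a TATA box 26 bases before the start and none of the other 3 motifs.
Postn: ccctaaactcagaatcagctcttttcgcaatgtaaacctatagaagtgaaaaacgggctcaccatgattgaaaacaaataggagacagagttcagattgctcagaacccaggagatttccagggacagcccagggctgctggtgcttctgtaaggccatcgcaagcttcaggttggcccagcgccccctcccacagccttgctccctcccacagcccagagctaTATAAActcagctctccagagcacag

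Sparcl1 encodes hevin, a relative of the collagen-binding protein Sparc with counter-adhesive activity. Sparcl1 (gene 13602; chr5:104079108-104114088, minus strand) was at 81.2, 57.7 and 67.4 CPM in CD34hi and 812, 1180 and 876 CPM in CD34lo libraries. The populations were separated by a wide gap, and the difference was seen in all 3 pools (log2 differences of -3.32, -4.36 and -3.70). The log2 fold change was -3.80 ± 0.21 (SE, 95% interval -4.27 to -3.32; edgeR, adjusted p = 6.13e-06), or 13.9-fold higher in CD34lo. Sparc itself was at 2830 ± 91.3 and 4980 ± 337 CPM (SD, n = 3), a log2 fold change of -0.82 ± 0.15 (SE, edgeR, adjusted p = 0.00256) that lost its call without pool 1 (adjusted p = 0.0575).

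Versican, the large chondroitin sulfate proteoglycan that binds hyaluronan, did not differ beyond the spread between libraries. Vcan (gene 13003; chr13:89655310-89742512, minus strand) was at 582, 543 and 454 CPM in CD34hi and 615, 294 and 646 CPM in CD34lo libraries. CD34lo pool 2 was the lowest of all libraries and the other CD34lo libraries were the highest. The log2 fold change was 0.02 ± 0.27 (SE, 95% interval -0.60 to 0.64; edgeR, adjusted p = 0.963), and -0.26 without the CD34lo library of pool 2 (adjusted p = 0.216). The interval does not exclude a difference of up to 0.64 on the log2 scale. An antisense gene, Gm4117, overlaps Vcan but held 133 counts against 127937 over the 6 libraries. In the window upstream of Vcan (chr13:89742513-89742762, minus strand), shown as that of a gene at near-equal mean level, a GC box lay 219 bases before the start, and a further GC box and a CCAAT box, both on the opposite strand, lay 10 and 103 bases before it.
Vcan: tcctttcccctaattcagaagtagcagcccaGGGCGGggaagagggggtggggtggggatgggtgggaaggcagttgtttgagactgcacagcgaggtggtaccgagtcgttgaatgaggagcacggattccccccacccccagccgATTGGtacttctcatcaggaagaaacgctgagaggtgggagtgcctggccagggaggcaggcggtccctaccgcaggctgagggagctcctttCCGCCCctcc

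The emilins, glycoproteins at the interface of elastic fibers and cells, were expressed in opposite directions. Emilin2 (gene 246707; chr17:71252176-71310965, minus strand) was at 1280, 1310 and 1310 CPM in CD34hi and 261, 276 and 234 CPM in CD34lo libraries. Its means were 1300 ± 19 and 257 ± 21.2 CPM (SD, n = 3), with the smallest coefficients of variation of the 10 genes (1.46% and 8.25%). Its log2 fold change was 2.33 ± 0.13 (SE, 95% interval 2.03 to 2.64; edgeR, adjusted p = 6.71e-06), or 5.04-fold higher in CD34hi. Emilin1 (gene 100952; chr5:30913786-30921275, plus strand), an elastic fiber component that restrains TGF-beta processing, was at 65, 69.3 and 90.2 CPM in CD34hi and 230, 135 and 239 CPM in CD34lo libraries. Here the lowest CD34lo library, again that of pool 2, exceeded the highest CD34hi library. Its log2 fold change was -1.43 ± 0.23 (SE, 95% interval -1.95 to -0.91; edgeR, adjusted p = 0.00142), or 2.69-fold higher in CD34lo. In CPM per kilobase, Emilin2 exceeded Emilin1 by 17.4, 16.7 and 12.8 times in CD34hi libraries, whereas the ratio was 1.01, 1.81 and 0.871 in CD34lo libraries, where their levels overlapped.

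**Figure D2:**
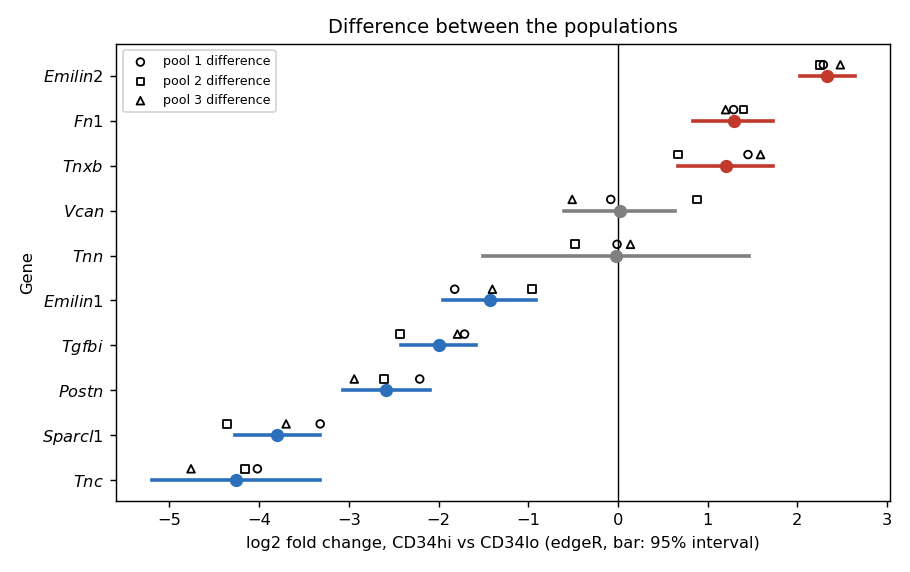
Log2 fold change (CD34hi vs CD34lo) of each gene, as a filled point with its 95% interval from edgeR, and the difference within each pool as open symbols. Red genes passed as higher in CD34hi, blue genes as higher in CD34lo, and the grey Vcan and Tnn did not pass; the pools lie on 1 side of 0 for the 8 genes that passed.

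The order of the 10 levels also differed between the populations. In CPM per kilobase of exon, the order in CD34hi fibroblasts was Fn1 (1950 ± 193, SD, n = 3), Postn (630 ± 117), Emilin2 (332 ± 4.87), Tnxb (325 ± 40.9), Tgfbi (51.6 ± 2.55), Vcan (35.8 ± 4.46), Sparcl1 (22.1 ± 3.80), Emilin1 (21.6 ± 3.89), Tnc (1.17 ± 0.613) and Tnn. The neighbours Emilin2 and Tnxb overlapped, as did Sparcl1 and Emilin1. In CD34lo fibroblasts, the order was Postn (3780 ± 617), Fn1 (802 ± 134), Sparcl1 (307 ± 63.2), Tgfbi (207 ± 52), Tnxb (142 ± 45.3), Emilin2 (65.8 ± 5.43), Emilin1 (58.1 ± 16.5), Vcan (35.3 ± 13.3), Tnc (22.5 ± 8.26) and Tnn. There, Sparcl1 overlapped Tgfbi, Tgfbi overlapped Tnxb, and each neighbouring pair from Emilin2 to Tnc overlapped. Sparcl1 moved from place 7 to place 3, and Emilin2 from place 3 to place 6.

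Fn1 and Postn exchanged the lead. The ratio of Fn1 to Postn per kilobase was 2.54, 3.26 and 3.70 in CD34hi libraries, whereas Postn exceeded Fn1 by 4.46, 4.94 and 4.77 times in CD34lo libraries. Of the summed CPM per kilobase of the 10 genes, Fn1 made up 57.9% ± 2.20 in CD34hi and 14.8% ± 1.10 in CD34lo libraries (SD, n = 3), and Postn 18.7% ± 3.00 and 69.5% ± 2.79. By contrast, the 10 genes together took a like share of all counts, between 2.13% and 2.51% in CD34hi and between 2.04% and 2.76% in CD34lo libraries. Per kilobase, their sum was 3370 ± 258 in CD34hi and 5420 ± 676 in CD34lo libraries, without overlap.

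**Figure D3:**
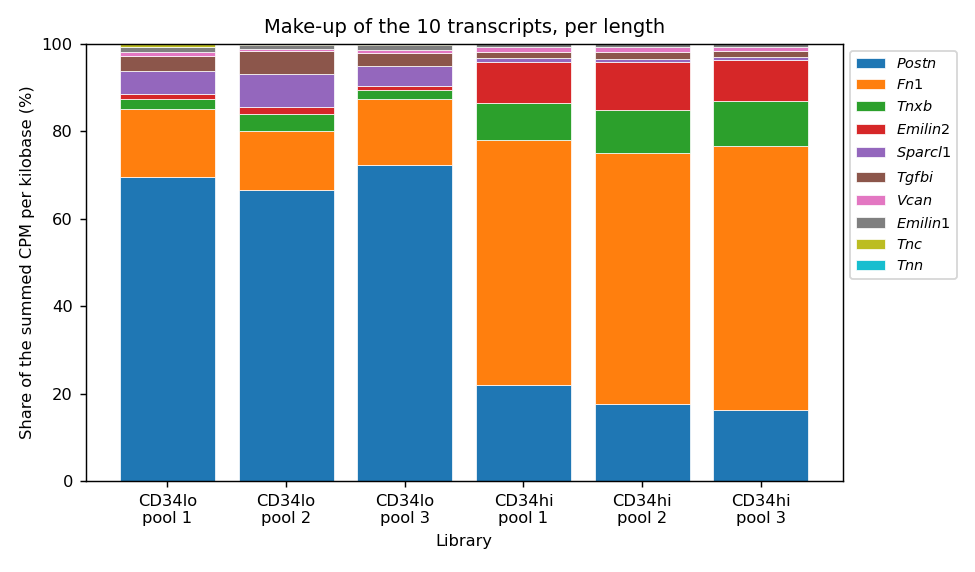
Share (%) of each gene in the summed CPM per kilobase of the 10 genes, with 1 stacked bar for each library. Postn takes the largest share in each CD34lo library (mean 69.5%) and Fn1 in each CD34hi library (mean 57.9%).

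Libraries of the same population also differed from each other, as described here for the CD34lo library of pool 2. How often this library lies farthest from the CD34lo mean over all tested genes was not counted. On the log2 scale, it lay below the CD34lo mean for Vcan (-0.73), Tnc (-0.62), Emilin1 (-0.53) and Fn1 (-0.24), and above it for Tnxb (0.49), Tgfbi (0.40) and Sparcl1 (0.32). Within the pools, the log2 difference was smaller in pool 2 than in the others for Tnxb (0.67, against 1.45 and 1.59) and for Emilin1 (-0.96, against -1.82 and -1.40), and it was larger in size for Sparcl1 (-4.36) and Tgfbi (-2.43). Vcan and Tnn had within-pool differences of both signs, at -0.08, 0.88 and -0.51 for Vcan. The CD34lo library of pool 2 also had the smallest total count (28764779), near that of the CD34lo library of pool 3 (29782245). The part of the depth in these values was not tested. For the 8 genes that differed, every alternative fit that left out a library or a pool kept the call. The call nearest the threshold was that of Tnxb without pool 3 (edgeR, adjusted p = 0.0464).

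**Figure D4:**
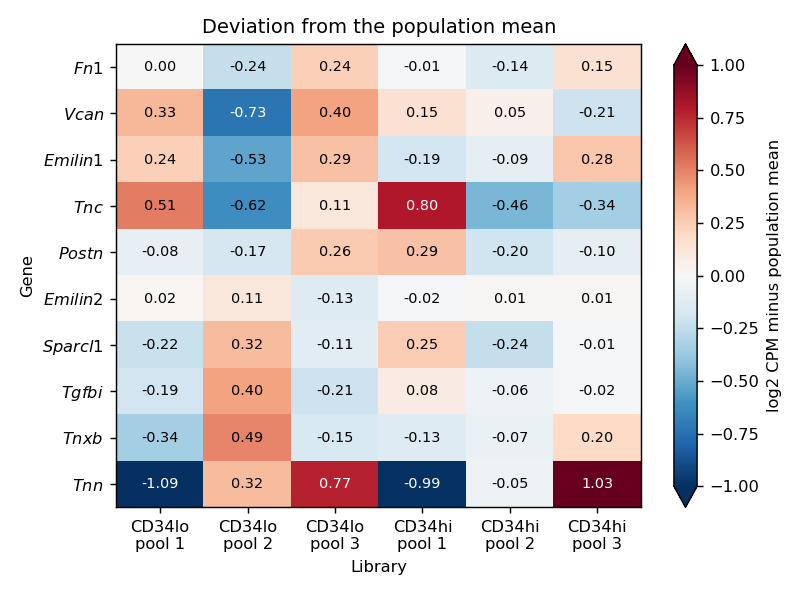
Deviation of each library from the mean of its population in log2 CPM, for each of the 10 genes. The CD34lo library of pool 2 lies below its group mean for Vcan, Tnc, Emilin1, Fn1 and Postn and above it for Sparcl1, Tgfbi and Tnxb, and the low-count Tnn varies most.

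Some markers of other cell types were higher in CD34lo libraries too. Of all tested genes, 18.7% were higher in CD34lo and 16.9% higher in CD34hi. The pericyte markers Rgs5, Mcam, Cspg4 and Notch3 were higher in CD34lo for 4 of 4 genes, with a sum of 7.43 to 12.1 CPM in CD34hi and 55 to 83.8 CPM in CD34lo libraries. The smooth muscle markers Acta2, Myh11 and Cnn1 were likewise higher for 3 of 3 genes, at 5.05 to 6.40 CPM and 66 to 74.9 CPM. None of these 7 genes was at 0 in any library, but the pericyte sum was mostly Notch3 and Cspg4. Their CD34lo means were 43.1 and 18.6 CPM, against 6.85 CPM for Mcam and 2.19 CPM for Rgs5. The endothelial markers Pecam1, Vwf and Cdh5 were higher in CD34lo for 2 of 3 genes, at 7.83 to 24 CPM and 28.7 to 49.8 CPM, although the sort depleted CD31+ cells (CD31 is the product of Pecam1). Vwf, the gene that did not pass (adjusted p = 0.0713), passed with the pool as a block (adjusted p = 0.00545) and without the CD34hi library of pool 2 (0.0464). It also passed in DESeq2 (adjusted p = 0.0142) and in edgeR without a filter on low counts (0.0497). Pecam1 lost its call in 7 of the 9 fits that left out a library or pool, the exceptions being the CD34hi library of pool 2 and the whole of pool 2 (adjusted p between 0.0528 and 0.221). Cdh5 lost its call without pool 3 (adjusted p = 0.0777), and Rgs5 without pool 1 or pool 3 (0.0997 and 0.061). Whether such cells were present and had a part in the higher Tnc, Postn, Tgfbi, Sparcl1 and Emilin1 levels of CD34lo libraries was not tested.

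Among the other lists, the 5 epithelial markers did not pass in either direction, with sums of 30.7 to 36.7 CPM in CD34hi and 25.9 to 36.6 CPM in CD34lo libraries. Both keratinocyte markers, Krtdap and Krt10, were higher in CD34hi, with sums of 14.3 to 19.9 CPM and 3.60 to 7.12 CPM, although Krt10 lost its call in 7 of the 9 fits that left out a library or pool, the exceptions being the CD34lo library of pool 2 and the whole of pool 2 (adjusted p between 0.0616 and 0.178). Krt10 also lost it in edgeR with upper-quartile normalization (adjusted p = 0.0639) and with at least 10 counts in every library (0.0507). Macrophage markers summed to at most 5.40 CPM in any library, with 0 of 2 tested genes passing and Cd163 at 0 in CD34lo pool 2. Cd68 passed without the CD34lo library of pool 3 (adjusted p = 0.0315) or without pool 3 (0.0318). With all libraries, Cd68 passed in DESeq2 (adjusted p = 0.0396) and in limma-voom with the pool as a block (0.0498). In edgeR, it passed with upper-quartile normalization (0.0456) and with at least 10 counts in every library (0.0493). Skeletal muscle markers summed to at most 3.88 CPM, with Des alone of 2 tested genes passing, higher in CD34lo, and with Myf5 and Myog at 0 in several libraries. Adipocyte markers summed to at most 1.60 CPM, and Plin1, the 1 gene tested, was higher in CD34lo but lost its call without pool 1 (adjusted p = 0.0818). Whether such cells were present and had a part in the levels of Fn1, Tnxb and Emilin2 was not tested.

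Of 16 listed relatives of the 10 genes, 11 were tested, 8 were higher in CD34lo (18.7% of all tested genes were), 2 were higher in CD34hi (16.9% of all) and 1 did not pass, with a median log2 fold change of -2.22. Emilin3 (-4.06) and Emid1 (-3.73), further proteins with an emilin domain, were higher in CD34lo, as was the more distant endothelial relative Mmrn2 (-1.19). Emilin3 and Emid1 were low, with means of 0.465 and 0.293 CPM in CD34hi libraries. Their CD34lo means were 7.69 ± 5.79 and 3.96 ± 1.7 CPM (SD, n = 3). Tnr, the tenascin of the nervous system, was also higher in CD34lo (-4.13), but reached at most 0.899 CPM. Of the Sparc-related genes, Smoc2, which encodes a calcium-binding matricellular protein, was at 113 ± 34.2 CPM in CD34hi and 529 ± 97.1 CPM in CD34lo (SD, n = 3), a log2 fold change of -2.22. Spock2 (-2.25) and Smoc1 (-2.56) had the same direction, although Smoc1 stayed at or below 1.04 CPM. The proteoglycan gene Spock3 was instead higher in CD34hi, at 18.7 ± 4.05 against 0.546 ± 0.306 CPM (5.21). Stab1, a scavenger receptor with fasciclin domains, was higher in CD34hi as well (1.95), and its relative Stab2 did not pass (-0.92, edgeR, adjusted p = 0.0628) unless at least 10 counts were required in every library (adjusted p = 0.0316). Tnr lost its call without pool 2 (adjusted p = 0.0587) and Mmrn2 without pool 1 (0.0681). Smoc1 lost it in limma-voom (adjusted p = 0.0587) and in 8 of the 9 fits that left out a library or pool, the exception being the CD34lo library of pool 1 (adjusted p between 0.0517 and 0.196).

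Genes for the receptors of these proteins went both ways. Of 12 receptor genes, 3 were higher in CD34hi, 4 were higher in CD34lo and 5 did not pass. Of all tested genes, 16.9% were higher in CD34hi and 18.7% higher in CD34lo. The receptor genes had a median log2 fold change of 0.02. Itga8, whose integrin binds fibronectin, tenascin-C and other RGD ligands, was at 6.06, 4.53 and 5.27 CPM in CD34hi and 69.7, 73.7 and 90.9 CPM in CD34lo libraries, with a log2 fold change of -3.88 ± 0.17 (SE, edgeR, adjusted p = 2.13e-06). Itgb8 (-3.34), Itga4 (-2.15) and the syndecan gene Sdc4 (-0.96) were also higher in CD34lo, although Itga4 stayed at or below 1.13 CPM. Itgb8 was low too, at means of 0.437 CPM in CD34hi and 4.48 CPM in CD34lo libraries. In CD34hi, Itgb3, a partner of the alpha-v subunit, was higher (141 ± 20 against 70.9 ± 12.1 CPM, 1.00), as were Itga9 (0.71), a tenascin-C receptor subunit, and Itgb6 (4.07), which stayed at or below 1.81 CPM. The main subunits of the fibronectin receptor, Itga5 (0.12, adjusted p = 0.804) and Itgb1 (-0.09, adjusted p = 0.671), and the alpha-v subunit Itgav (-0.24, adjusted p = 0.436) did not pass in edgeR. Itgb5 and Cd44 did not pass either (0.35 and 0.82, adjusted p = 0.0518 and 0.0732), but both passed with the mouse pool as a block (adjusted p = 0.0409 and 0.0039). Both passed in DESeq2 too (adjusted p = 0.0219 and 0.0203), as did Itgb5 in limma-voom (0.044) and Cd44 in edgeR without a filter on low counts (0.0446). Cd44 also passed without the CD34hi library of pool 3 (adjusted p = 0.00537) or without pool 3 (0.0107), and Itgav without the CD34lo library of pool 2 (0.0188). Itga4 lost its call without pool 2 or pool 3 (adjusted p = 0.0629 and 0.0532), and Sdc4 without pool 1 (0.0516).

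Of 10 tested genes of 11 listed matrix partners, 5 were higher in CD34hi (16.9% of all tested genes were), 2 were higher in CD34lo (18.7% of all) and 3 did not pass, with a median log2 fold change of 0.61. Fbn1, the microfibril protein that emilins and fibulins bind, was at 6080, 7600 and 7300 CPM in CD34hi and 1270, 1770 and 1590 CPM in CD34lo libraries, with a log2 fold change of 2.18 ± 0.19 (SE, edgeR, adjusted p = 4.97e-05). The hyaluronan synthases Has2 (2.06) and Has1 (1.14), the elastic fiber protein Fbln5 (1.39) and the procollagen protease Bmp1 (1.02) had the same direction. Fbln1 (-0.66) and the link protein gene Hapln3 (-2.99) were higher in CD34lo, although Hapln3 was low, at means of 0.446 CPM in CD34hi and 3.55 CPM in CD34lo libraries. The values of Fbln2 (0.17), Eln (0.20) and the crosslinking enzyme Lox (-0.59, adjusted p = 0.114) did not pass in edgeR, although Lox did so with the pool as a block (adjusted p = 0.0102) and without the CD34hi library of pool 3 (0.032). Has1 lost its call without the CD34hi library of pool 1 or 2, the CD34lo library of pool 2 or 3, or the whole of pool 1 or 2 (adjusted p between 0.0511 and 0.107). Fbln1 lost its call without the CD34hi library of pool 1 or 2, the CD34lo library of pool 2, or the whole of pool 1 or 2 (adjusted p between 0.0532 and 0.2).

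Proteases that act on versican and other matrix proteins were also mixed. Of 10 tested genes of 11 listed, 1 was higher in CD34hi, 4 were higher in CD34lo and 5 did not pass. Among all tested genes, 16.9% were higher in CD34hi and 18.7% higher in CD34lo. The protease genes had a median log2 fold change of -0.03. Adamts5, a versican- and aggrecan-cleaving protease, was at 670, 811 and 1380 CPM in CD34hi and 161, 278 and 276 CPM in CD34lo libraries, with a log2 fold change of 2.00 ± 0.31 (SE, edgeR, adjusted p = 0.00119). Adamts4, which has the same class of substrates, was instead higher in CD34lo, at 35.2 ± 2.56 and 204 ± 25.2 CPM (SD, n = 3), with a log2 fold change of -2.53 ± 0.14 (SE, edgeR, adjusted p = 5.19e-06). Adamts9 (-1.83), Adamts20 (-2.67) and the stromelysin gene Mmp3 (-1.71) were also higher in CD34lo, although Adamts20 stayed at or below 1.19 CPM. Adamts1 (0.12), Mmp2 (0.21), Mmp14 (-0.04) and Htra1 (-0.03) did not pass, nor did Adamts15 (0.52, edgeR, adjusted p = 0.0985), which passed with the pool as a block (adjusted p = 0.00574), without the CD34lo library of pool 2 (0.0085) and without pool 2 (0.0274).

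**Figure D5:**
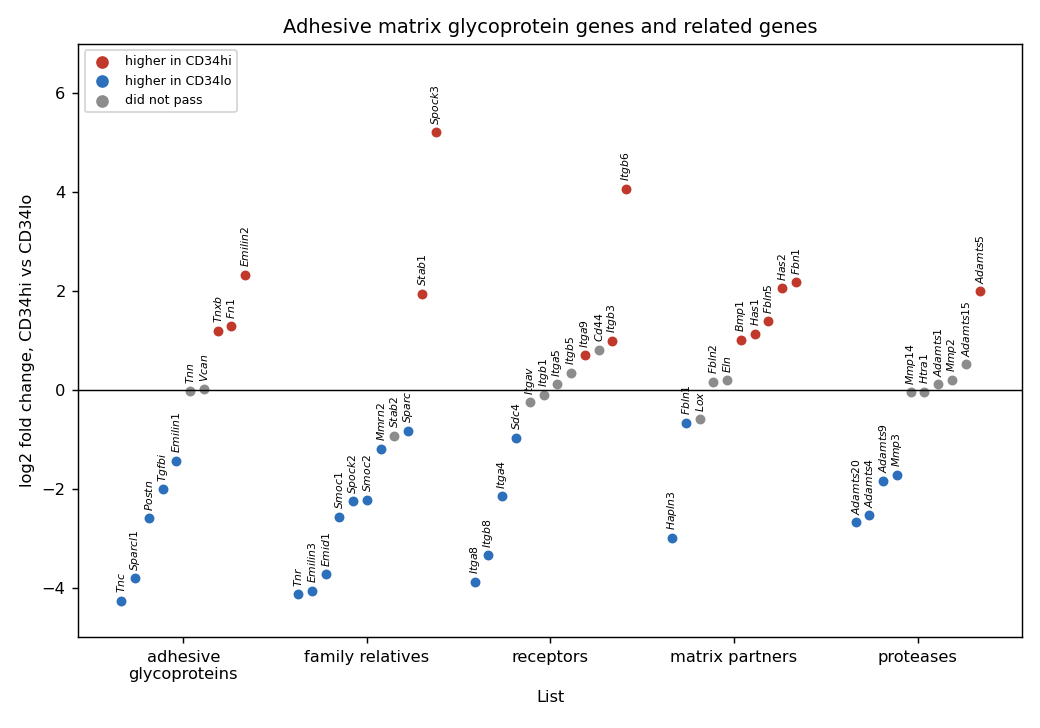
Log2 fold change (CD34hi vs CD34lo) of the 10 adhesive glycoprotein genes and of the tested genes in 4 related lists, with 1 point for each gene, red where it was higher in CD34hi, blue where it was higher in CD34lo and grey where it did not pass. The family relatives have the lowest median of the 4 related lists (-2.22) and the matrix partners the highest (0.61).

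For each gene, the genes with the nearest profile over the 6 libraries were found as those with the smallest root mean square distance in centred log2 CPM, among 8872 candidates (8873 for Tnn) with a mean log2 CPM of at least 3. Those of Sparcl1 were Mgp, the matrix Gla protein gene (distance 0.0951, log2 fold change -3.86), and Gucy1a1, a subunit of soluble guanylate cyclase (0.159, -3.58). Those of Tnc were the netrin receptor gene Unc5b (0.161, -4.09) and Rgs2 (0.182, -4.33), those of Postn were Pde7b (0.111, -2.70) and Doc2b (0.117, -2.75), and those of Tgfbi were Mtss2 (0.108, -1.90) and Acp5 (0.13, -2.03). Emilin1 lay nearest to Dio2 (0.117, -1.27) and to the co-receptor gene Nrp1 (0.135, -1.60). On the CD34hi side, Fn1 lay nearest to Rtn4rl1 (0.059, 1.20) and Fam131b (0.0784, 1.36), Tnxb to Gstm1 (0.0766, 1.16) and Steap3 (0.0917, 1.31), and Emilin2 to Shpk (0.108, 2.37) and Triobp (0.118, 2.31). Vcan was nearest to Vkorc1l1 (0.154) and Gmcl1 (0.162), and Tnn to Aldh1a1 (0.172) and F830016B08Rik (0.30). These distances rest on 6 libraries from 3 pools and are a description.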

How the data were processed

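RNA-seq libraries (TruSeq RNA v2, NextSeq) were made from the 6 sorted samples. The authors used GRCm38 (mm10) as the genome and Rsubread for counting, and deposited raw counts for each gene, neither normalized nor filtered. The strand setting and the treatment of multi-mapping reads are not given in the sources used here, so that overlapping antisense genes may share reads. Symbols came from a reference gene table (25275 of 27179 identifiers).

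The test was run in edgeR 4.0.16 under R 4.3.3 (filterByExpr, TMM, quasi-likelihood test, Benjamini-Hochberg adjustment over 15219 genes, threshold 0.05). The SE was taken as the size of the log2 fold change over the root of F. TMM factors were between 0.967 and 1.04, and floors of 3 counts cover counting error only. The common biological coefficient of variation was 19.7%, and 14.9% with the pool as a block. Replicate libraries differed beyond sampling noise (chi-square over its degrees of freedom was 24 or more). For a single gene, an exact two-sided permutation test of 3 against 3 libraries cannot go below p = 0.1. The script was tested on simulated data.

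Same-numbered libraries were taken to come from the same pool of mice, because their labels share the number of the mammary gland. The correlation of their deviations from the population means was 0.279, 0.0844 and 0.243 for pools 1, 2 and 3. A fit with the replicate block was therefore an alternative. Other alternatives were limma-voom 3.58.1 (the study's method), DESeq2 1.42.0, RLE and upper-quartile normalization, other filters, a required size of 1 in log2 fold change, and each library or pool left out. Named genes are the 10 genes, the 4 related lists, the cell type markers and the 2 nearest profiles of each gene, and the alternatives covered those whose log2 fold change or call is given. The results of some marker genes are not reported here. The genes and lists were chosen with earlier results of these data known. Promoter sequences are from RefSeq (8 of 10 genes matched; Fn1 and Sparcl1 did not).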

Additional observations from a re-analysis of the deposited data

How the results depend on the processing

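The 8 adhesive glycoprotein genes that differed passed in the same direction in each of the 17 alternatives run for each of them, and none of the 10 gained or lost a call. Over all genes, 5411 differed, against 6161 with the replicate block in edgeR, 6418 with it in limma-voom, 2986 when a size of at least 1 in log2 fold change was required, and 3468 (without pool 1) to 5236 when a library or pool was left out. In edgeR, the block added Itgb5, Cd44, Lox and Adamts15 and changed no other call in the 10 genes and the 4 related lists. The share of calls higher in CD34hi was 47.5%, and 42.2% with upper-quartile normalization. Signs turned for genes that did not pass. Tnn was at 0.036 in limma-voom and between -0.71 and 0.42 with a library or pool left out, and Vcan was at -0.031 with upper-quartile normalization and between -0.28 and 0.31. The same leave-outs gave -0.15 to 0.45 for Itga5, -0.18 to 0.038 for Itgb1, -0.05 to 0.46 for Eln, -0.011 to 0.30 for Adamts1, -0.20 to 0.19 for Mmp14 and -0.17 to 0.16 for Htra1, which was at 0.00044 without a filter. The cause was not tested. Among cell type markers, they gave -0.0079 to 0.62 for Epcam, -0.056 to 0.16 for Krt8, -0.14 to 0.33 for Krt18, -0.48 to 0.043 for Krt14, -1.04 to 0.89 for Krt5, -0.87 to 0.43 for Fcgr1 and -0.63 to 0.40 for Acta1. In limma-voom, Krt5 was at -0.16, Fcgr1 at 0.30 and Acta1 at 0.15, and Krt5 was at -0.085 with the replicate block in edgeR. Of 1451 comparisons for 86 other genes (43 of the related lists, 27 cell type markers and 16 nearest profiles), 1335 kept direction and call, 56 lost the call, 30 gained it and 30 turned in sign. Tnn had 9 to 37 counts in a library and a coefficient of variation of 67.3% in CD34hi and 54.9% in CD34lo libraries.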
